A study of Homo sapiens with 6 samples.

Results

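The nucleolar ribosome biogenesis genes described here are 42 genes, given by symbol, whose Ensembl identifiers were looked up among the 60617 genes of the deposited count table. All 42 symbols matched a single identifier, and all 42 genes passed the filter on low counts, which left 18505 genes. RNA was sequenced from 3 libraries of cells with a knockout of YTHDF1 (KO) and 3 libraries of wild-type (WT) cells, all of A549, an established line that grew out of a human lung adenocarcinoma. No other allele or agent is named for either group. YTHDF1 is a cytoplasmic protein that binds N6-methyladenosine in mRNA. The labels call the libraries biological replicates and do not say whether they came from separate cultures or from more than a single knockout clone, so the p-values below measure only the spread between these libraries. The question the study put to these libraries is how the transcriptomes of knockout and WT cells differ.

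Ribosomes are assembled in the nucleolus, where RNA polymerase I transcribes the precursor of the ribosomal RNAs. Small nucleolar ribonucleoproteins (snoRNPs) guide methylation and pseudouridylation of that precursor. Separate sets of factors then fold, cleave and export the small and the large subunit. Cancer cells commonly express these genes at high levels, and the transcription factor MYC is a well-known activator of many of them. The 42 genes were sorted by role into 6 groups. The first groups hold core genes of box C/D snoRNPs, core genes of box H/ACA snoRNPs and abundant nucleolar chaperones. The others hold genes of RNA polymerase I transcription, small subunit processing and large subunit processing.

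The knockout libraries held 32037107, 40675628 and 40186533 counts and the WT libraries 38225388, 27238817 and 40460782 counts. Levels are CPM, counts scaled to a common library size with TMM factors, and between 0.0735 and 0.111 CPM was what 3 counts amounted to. Log2 fold changes are knockout over WT, each given with its fitted standard error (SE), means are given ± SD over n = 3 libraries, and adjusted p-values come from the quasi-likelihood test of edgeR, adjusted by Benjamini-Hochberg over all 18505 genes. A gene is said to have risen or fallen where its adjusted p was below 0.05. YTHDF1 itself had 48.6, 48.6 and 47.1 CPM in the knockout libraries, against 98.0, 104 and 96.4 CPM in the WT libraries. It fell by 1.05 on the log2 scale (SE 0.0526, adjusted p 7.84e-18), and its RNA was still detected in every knockout library. Which exon was targeted is not stated in the labels, so this RNA does not show how much protein remained. Of 12 markers of the line 9 were tested, of which 4 rose and 2 fell. The summed level of the 12 was between 9730 and 10100 CPM in knockout libraries and between 10600 and 11100 CPM in WT libraries. Most of it was ALDH1A1, with between 5190 and 5460 CPM in knockout libraries and between 5960 and 6230 CPM in WT libraries. The keratin gene KRT8 had between 1750 and 1830 CPM in knockout libraries and between 1510 and 1650 CPM in WT libraries. The adhesion gene CDH1 had between 33.4 and 34.6 CPM in knockout libraries and between 8.57 and 11.9 CPM in WT libraries, and AKR1B10 between 454 and 523 CPM in knockout libraries and between 975 and 1060 CPM in WT libraries. The lung lineage gene NKX2-1 did not exceed 0.05 CPM in any library. The summed level of 6 endothelial markers was between 0.49 and 0.526 CPM in knockout libraries and between 0.87 and 1.27 CPM in WT libraries, with ERG at 0 throughout. The summed level of 9 leukocyte markers was between 8.11 and 8.41 CPM in knockout libraries and between 14.2 and 15.2 CPM in WT libraries. CD3D, CD3E and MS4A1 were at 0 throughout. Most of that sum was CD14, between 3.05 and 4.06 CPM in knockout and 10.9 and 11.3 CPM in WT libraries, and ITGAM. ITGAM was higher in knockout libraries, with 4.21 to 4.95 CPM against 2.87 to 3.88 CPM. Of the 2 leukocyte markers tested 1 rose and 1 fell. The summed level of 8 fibroblast markers was between 47.3 and 50.4 CPM in knockout libraries and between 41.4 and 43.2 CPM in WT libraries, most of it COL1A1, while 4 of the 6 tested fell and 2 rose, with THY1 between 2.8 and 3.78 CPM in knockout libraries and between 5.08 and 8.87 CPM in WT libraries. The share of counts on mRNAs of the mitochondrial genome lay between 3.72% and 3.98% in knockout libraries and between 5.76% and 5.92% in WT libraries. The part of these differences in the results below was not tested.

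Most changes among the nucleolar genes were small falls. Of the 42 genes, 22 fell, 5 rose and 15 did not pass the test. Among all genes tested 26.3% fell, 27.2% rose and 53.5% passed in either direction, while 52.4% of the 42 genes fell, 11.9% rose and 64.3% passed in either direction. The nucleolar genes are more abundant than most, with a median level of 66.7 CPM against 12.3 CPM over all genes tested, and abundant genes pass the test more often. Among the 7810 genes that averaged 20 CPM or more, a background added after the values were seen, 38.1% fell, 35.7% rose and 73.7% passed in either direction. Of the 38 nucleolar genes above that level, 57.9% fell, 13.2% rose and 71.1% passed in either direction. The median log2 fold change was -0.17 over the 42 genes and 0.00 over all genes tested. In these bulk libraries a level is a share of the RNA sequenced, so that fewer cells expressing a gene and less of its RNA per cell cannot be told apart.

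None of the 42 genes reached a 2-fold change. Their log2 fold changes ran between -0.87 and 0.44, whereas 12.4% of all genes tested, and 7.31% of those that averaged 20 CPM or more, passed the test with a change of at least 2-fold. With a change of at least 1.5-fold built into the test, 2 of the 42 genes, FBL and NPM1, were still lower, and 5.47% of all genes tested were lower. In either direction 14.0% of all genes tested passed, or 14.8% of those that averaged 20 CPM or more. In 22 genes every knockout library lay below every WT library, and in 7 genes every knockout library lay above. The background was 29.1% lower, 29.8% higher and 58.9% in either direction of all genes tested. Of the 38 nucleolar genes that averaged 20 CPM or more, 22 lay below, 7 lay above and 9 overlapped. Of all 7810 genes at that level, 3114 lay below, 2898 lay above and 1798 overlapped.

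**Figure D1:**
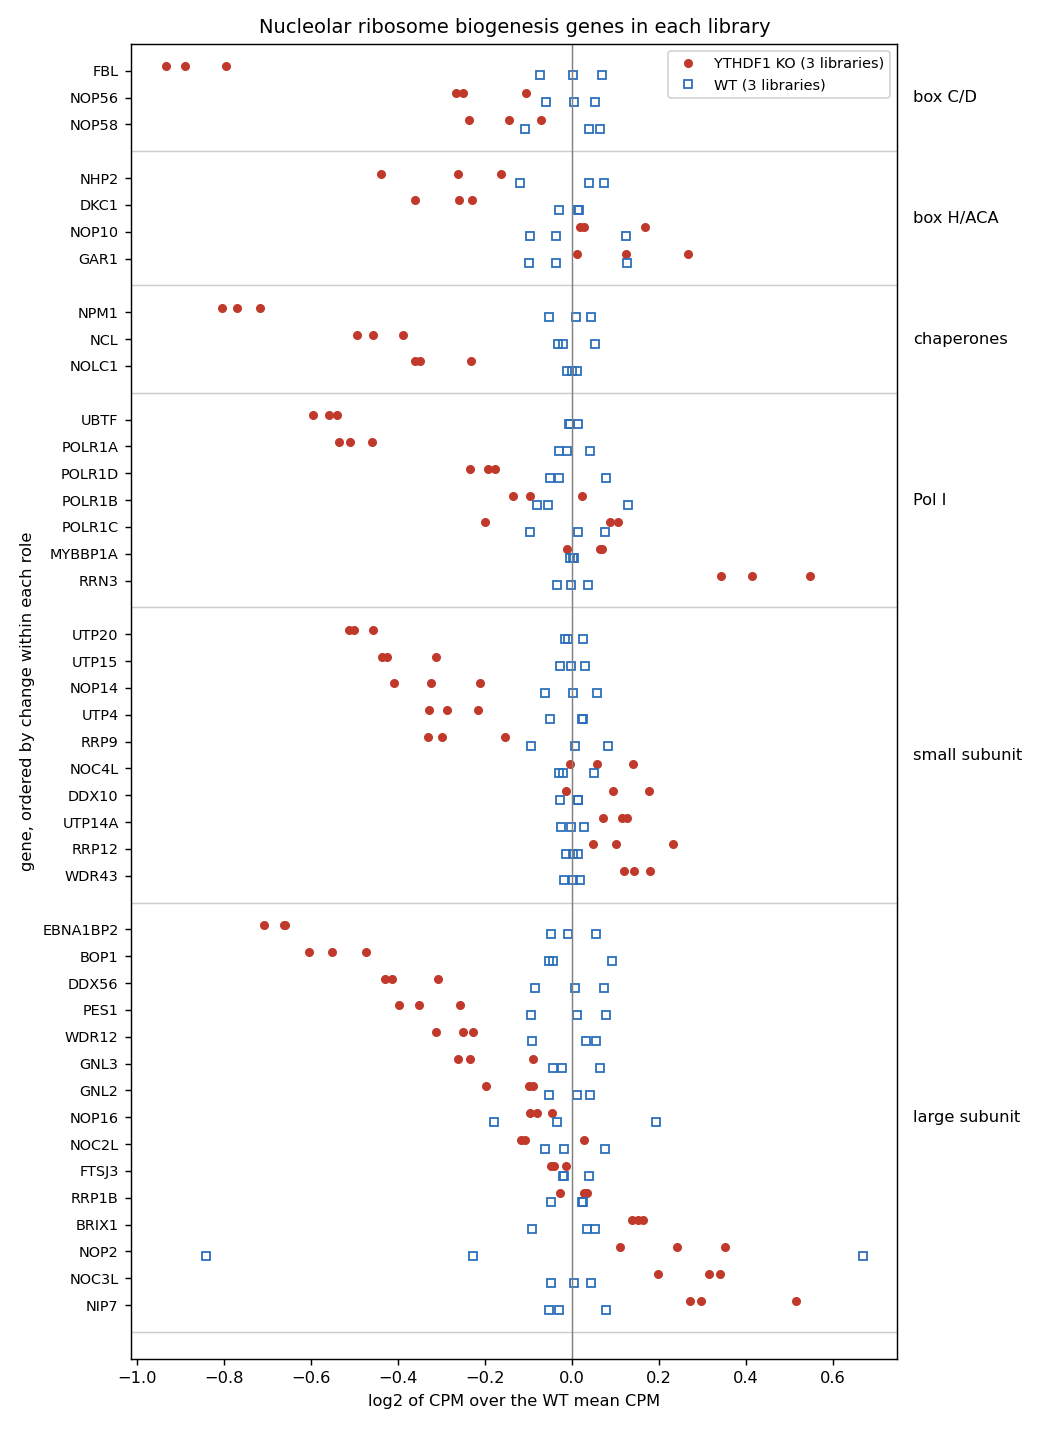
Log2 of CPM over the WT mean CPM (x axis) for each of the 42 genes (rows), grouped by role, with filled circles for the 3 YTHDF1 KO libraries and open squares for the 3 WT libraries. Apart from NOP2, FBL and NPM1 lie farthest to the left, and RRN3 and NIP7 lie to the right. NOP2, at about 1 CPM, has the widest WT spread, with WT libraries beyond NPM1 on the left and RRN3 on the right.

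**Figure D2:**
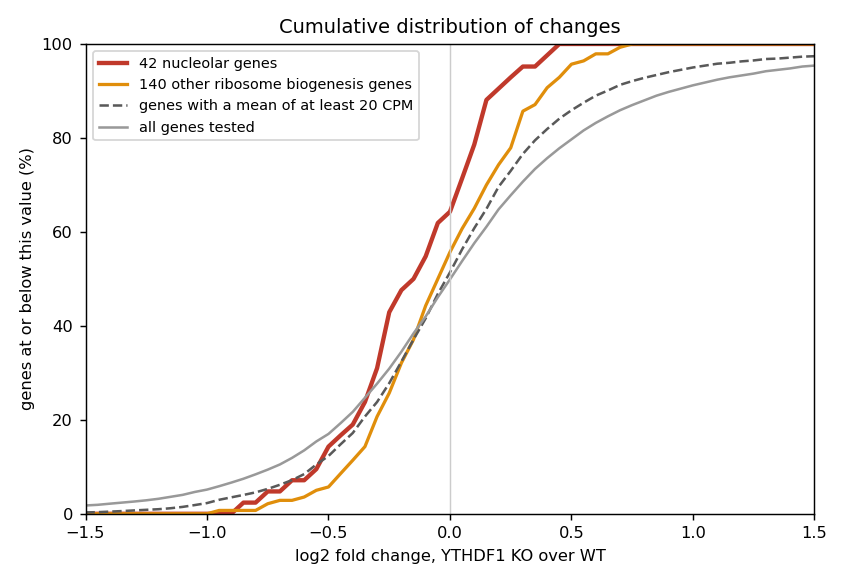
Percentage of genes (y axis) at or below each log2 fold change, YTHDF1 KO over WT (x axis), for the 42 nucleolar genes, 140 other ribosome biogenesis genes, genes that averaged 20 CPM or more and all genes tested. The nucleolar genes have a median of -0.17, the other ribosome biogenesis genes a median of -0.05, and neither set extends as far as all genes tested on either side.

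Together the 42 genes took 0.442%, 0.415% and 0.422% of the counts in knockout libraries, against 0.526%, 0.545% and 0.537% in WT libraries. The share in every knockout library was therefore below that in every WT library, and the ratio of the mean shares was 0.795. Without NCL and NPM1, the 2 most abundant of the genes, the shares averaged 0.290% ± 0.00971 in knockout libraries and 0.332% ± 0.00451 in WT libraries (SD, n = 3 each), a ratio of 0.874. Knockout replicate 1 had the highest level among knockout libraries for 30 of the 42 genes. Its median log2 ratio to the WT mean over the 42 genes was -0.09, compared with -0.21 in knockout replicate 2 and -0.20 in knockout replicate 3. Without knockout replicate 1, 22 genes fell and 4 rose.

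The promoters of these genes were read for the palindromic E-box, the hexamer CACGTG, which is a known binding sequence of MYC with its partner MAX and of other helix-loop-helix factors. RefSeq windows on GRCh38.p14, from 250 bases before to 50 bases after the annotated start, were at hand for 37 of the 42 genes, some with more than 1 start. The hexamer reads the same on both strands, and no other motif was searched. It was present in 16 of the 37 genes, or 17 of their 45 windows (37.8%), compared with 7.26% of all 35116 windows and with 12.2% of the 12277 genes tested that had a window. In 15 of the 37 genes (40.5%) a copy began between 50 bases before and 45 bases after the start, which was so for 5.03% of the genes tested that had a window. By window the shares were 33.3% of those of the 42 genes and 2.82% of all. A match describes these letters and shows no binding.

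The 4 genes that fell most and the 2 that rose with the hexamer near a single annotated start are shown first, followed by the gene that fell most and the gene that rose most among those with a single window and no copy in it. Their windows are given so that the place of the hexamer can be compared. Each run gives 60 bases before and 30 bases from the start, 5′ to 3′ on the strand of the gene, with the hexamer in capitals. The runs lie at chr19:39846350-39846439 (minus strand) for FBL, chr12:101280045-101280134 (plus) for UTP20, chr22:30591881-30591970 (minus) for PES1, chr4:2963377-2963466 (minus) for NOP14, chr10:94362910-94362999 (minus) for NOC3L, chr2:28894607-28894696 (plus) for WDR43, chr2:86105857-86105946 (minus) for POLR1A and chr16:69339712-69339801 (plus) for NIP7.
FBL: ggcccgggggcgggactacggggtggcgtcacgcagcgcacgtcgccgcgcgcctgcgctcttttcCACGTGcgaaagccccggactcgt
UTP20: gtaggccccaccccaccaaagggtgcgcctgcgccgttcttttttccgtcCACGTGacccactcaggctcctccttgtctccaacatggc
PES1: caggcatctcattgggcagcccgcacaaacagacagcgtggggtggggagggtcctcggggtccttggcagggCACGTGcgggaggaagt
NOP14: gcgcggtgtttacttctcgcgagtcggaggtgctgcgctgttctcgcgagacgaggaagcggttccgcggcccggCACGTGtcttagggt
NOC3L: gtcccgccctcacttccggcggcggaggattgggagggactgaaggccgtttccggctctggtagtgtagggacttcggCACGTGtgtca
WDR43: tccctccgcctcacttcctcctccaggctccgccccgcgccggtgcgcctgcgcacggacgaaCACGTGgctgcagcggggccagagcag
POLR1A: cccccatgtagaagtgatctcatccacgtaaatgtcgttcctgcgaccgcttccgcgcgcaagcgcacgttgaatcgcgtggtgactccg
NIP7: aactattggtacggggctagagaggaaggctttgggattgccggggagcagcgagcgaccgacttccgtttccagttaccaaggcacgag

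The hexamer began 10 bases before the start in UTP20 and at base 7 of the transcript in FBL, base 4 in WDR43, base 14 in PES1, base 16 in NOP14 and base 20 in NOC3L. Genes with and without it moved in both directions. Of the 16 genes with the hexamer 8 fell and 2 rose, and their log2 fold changes had a median of -0.16 and a range of -0.87 to 0.28. Of the 21 genes without it 11 fell and 2 rose, with a median of -0.20 and a range of -0.76 to 0.44. Beside both sets, 26.3% of all genes tested fell and 27.2% rose. Among genes of the MYC network, MYC averaged 184 ± 5.47 CPM in knockout libraries and 192 ± 0.912 CPM in WT libraries (SD, n = 3 each), and its log2 fold change of -0.06 (SE 0.0429) did not pass the test, with an adjusted p of 0.257. Its partner MAX rose by 0.31 (SE 0.059, adjusted p 3.78e-05). Among the other genes of the network, MXD1, a repressor that pairs with MAX, rose by 1.06, while the related genes MXD3 and MXD4 fell by 1.42 and fell by 0.71. The level of MXD3 is uncertain, since 22.5% of its exonic bases overlap a gene on the other strand and 18.0% a gene on the same strand. Of 11 listed genes of the network 10 were tested, of which 3 rose and 3 fell. Both shares are near the background, since 27.2% of all genes tested rose and 26.3% fell.

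**Figure D3:**
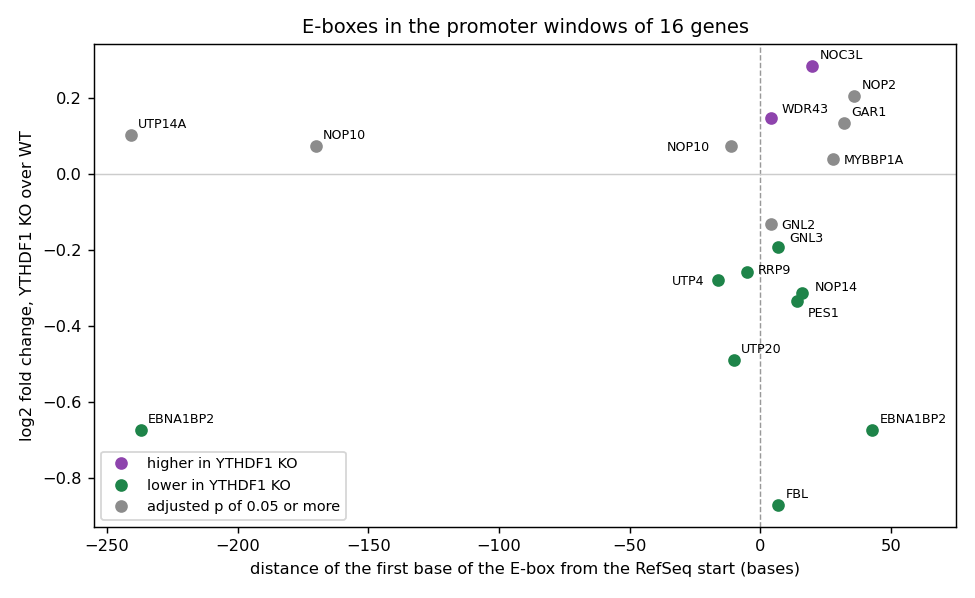
Distance of the first base of each E-box from the RefSeq start in bases (x axis, the dashed line marks the start) and log2 fold change, YTHDF1 KO over WT (y axis), for the 16 genes with a copy, where EBNA1BP2 and NOP10 have 2 each. Most copies lie within 50 bases of the start, and genes that fell, rose or did not pass the test lie side by side there.

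The 3 core genes of box C/D snoRNPs among the 42 genes all fell, with very different sizes, where 26.3% of all genes tested fell. SNU13, also a core gene of these snoRNPs, was listed with the other small subunit factors. It fell by 0.33 (SE 0.0695, adjusted p 0.000152). FBL, a minus-strand gene on chromosome 19, from 39834458 to 39846414 in GENCODE 29 (GRCh38), encodes fibrillarin, the enzyme of the complex that methylates ribosomal RNA. It had 151, 141 and 137 CPM in knockout libraries, against 249, 275 and 262 CPM in WT libraries, so the groups lay far apart. FBL fell by 0.87 (SE 0.0468, adjusted p 4.53e-17), the largest fall of the 42 genes, to 54.7% of the WT mean. NOP56 and NOP58 are paired scaffold proteins that hold fibrillarin on the RNA. NOP58 had 79.2, 70.6 and 75.3 CPM in knockout libraries and 77.2, 87.1 and 85.5 CPM in WT libraries. Its groups overlapped, and it fell by 0.15 (SE 0.0555, adjusted p 0.0227). That call was lost without knockout replicate 2 (adjusted p 0.179), knockout replicate 3 (0.0566), WT replicate 2 (0.102) or WT replicate 3 (0.0992). NOP56 fell by 0.21 (SE 0.0476) to 160 ± 9.92 CPM in knockout libraries, against 185 ± 7.21 CPM in WT libraries.

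Levels of FBL relative to its partners showed the same gap library by library. There were 1.91, 2.0 and 1.82 CPM of FBL per CPM of NOP58 in knockout libraries, against 3.23, 3.16 and 3.07 in WT libraries. Per CPM of NOP56 the values were 0.879, 0.919 and 0.883 in knockout libraries and 1.4, 1.43 and 1.41 in WT libraries. The ratio of NOP58 to NOP56 was 0.468 ± 0.0139 in knockout libraries and 0.450 ± 0.0135 in WT libraries (SD, n = 3 each), and its groups overlapped. These and the other partner ratios given here were chosen after the values were seen and are descriptions without a test. They compare each gene with another in the same library and are not levels per length.

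**Figure D4:**
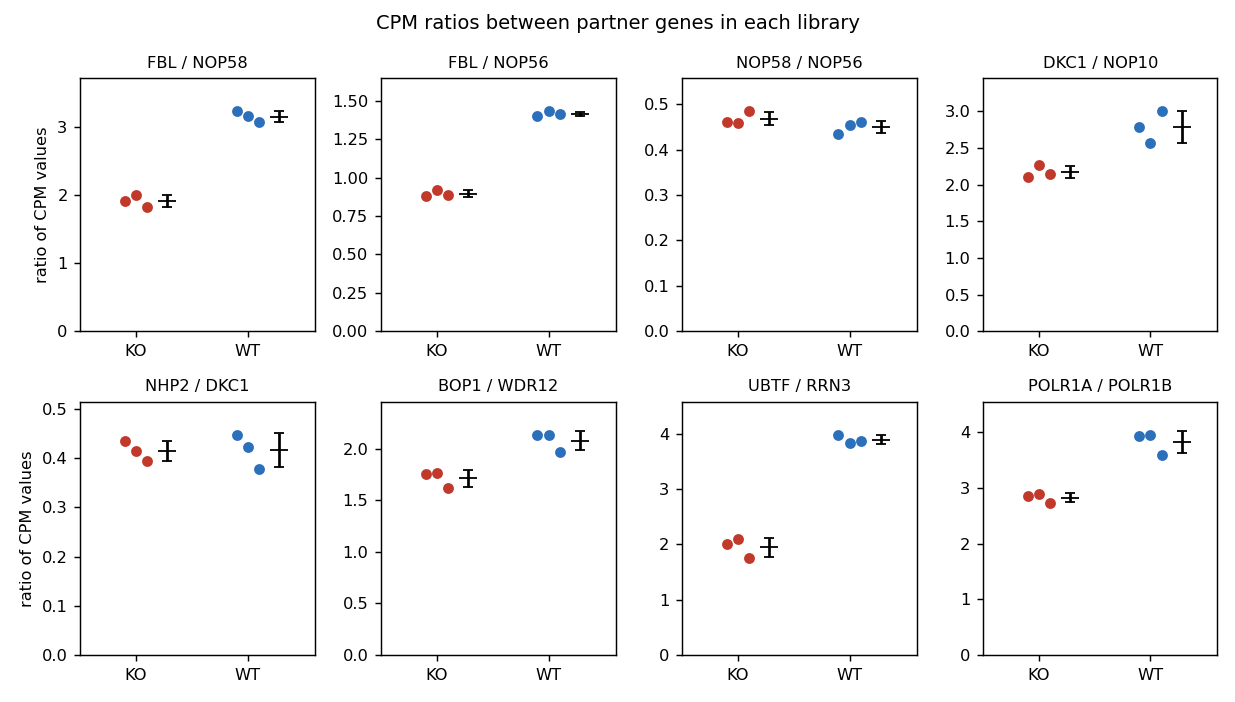
Ratio of CPM values (y axis, from 0) between 8 pairs of partner genes in the 3 YTHDF1 KO and the 3 WT libraries, with points for libraries and a bar for the mean ± SD beside them. The ratios with FBL, DKC1, BOP1, UBTF and POLR1A on top separate the groups, whereas NOP58 over NOP56 and NHP2 over DKC1 overlap.

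Box H/ACA snoRNPs, which convert uridines of ribosomal RNA to pseudouridine and also stabilise telomerase RNA, were split. The pseudouridine synthase gene DKC1 (dyskerin) fell by 0.28 (SE 0.0482, adjusted p 7.06e-06) to 97.2 ± 4.53 CPM, against 118 ± 2.16 CPM in WT libraries. NHP2, an RNA-binding core protein, had 43.9, 41 and 36.3 CPM in knockout libraries and 51.8, 50.5 and 45.3 CPM in WT libraries. The groups did not overlap, and NHP2 fell by 0.28 (SE 0.0691, adjusted p 0.000741). The other two core genes did not pass the test. GAR1 had 20.7, 18.7 and 17.3 CPM in knockout libraries and 18.8, 16.8 and 16.1 CPM in WT libraries, overlapping groups with a log2 fold change of 0.13 (SE 0.0912, adjusted p 0.227). NOP10, the smallest core protein, averaged 44.8 ± 2.65 CPM in knockout libraries and 42.6 ± 3.44 CPM in WT libraries. In GENCODE 29, 27.4% of the exonic bases of NHP2 overlap RMND5B on the other strand. The labels do not state the strand setting of the counting, so the level of NHP2 is uncertain, as are those of the other genes with such overlaps named here.

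The abundant nucleolar chaperones all fell, with no overlap between groups. Of all genes tested 26.3% fell, and in 29.1% every knockout library lay below every WT library. NPM1, on chromosome 5 from 171387116 to 171411137 on the plus strand, encodes nucleophosmin, which carries ribosomal and other basic proteins in the nucleolus. It had 678, 653 and 638 CPM in knockout libraries, against 1074, 1121 and 1148 CPM in WT libraries, and fell by 0.76 (SE 0.0392, adjusted p 1.41e-17). GENCODE 29 names 45 pseudogenes of NPM1, so the division of its reads is uncertain. NCL, which encodes nucleolin, an RNA-binding protein of early ribosome assembly, had 723, 673 and 689 CPM in knockout libraries, against 926, 982 and 934 CPM in WT libraries. NCL fell by 0.45 (SE 0.0396, adjusted p 1.62e-11). NOLC1, whose product escorts snoRNPs, changed least of these genes. It had 198, 182 and 183 CPM in knockout libraries, against 235, 231 and 233 CPM in WT libraries, and fell by 0.31 (SE 0.044, adjusted p 2.63e-07).

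Per kilobase of exon, NPM1 stood at 172 CPM in knockout libraries and 291 CPM in WT libraries, the highest of the 41 genes other than NOP2. NCL followed with 100.3 CPM per kilobase in knockout libraries and 137 in WT libraries, and FBL with 65.9 in knockout libraries and 121 in WT libraries. NOP10 stood at 80.8 CPM per kilobase in knockout libraries and 76.9 in WT libraries, so that FBL was below NOP10 in the knockout and above it in WT. The length here is that of all annotated exons of a gene merged, 2173 bases for FBL and 554 for NOP10. The order of genes depends on that choice, and other lengths were not tried. Across the 42 genes, those with a higher mean level had lower log2 fold changes, with a Spearman rho of -0.474 between log2 mean CPM and log2 fold change (Pearson r -0.49). Over the 41 genes other than NOP2, rho was -0.442 and r was -0.479. Over all 18505 genes tested both values were -0.026. These are correlations across genes that share their libraries, and genes are not independent replicates.

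**Figure D5:**
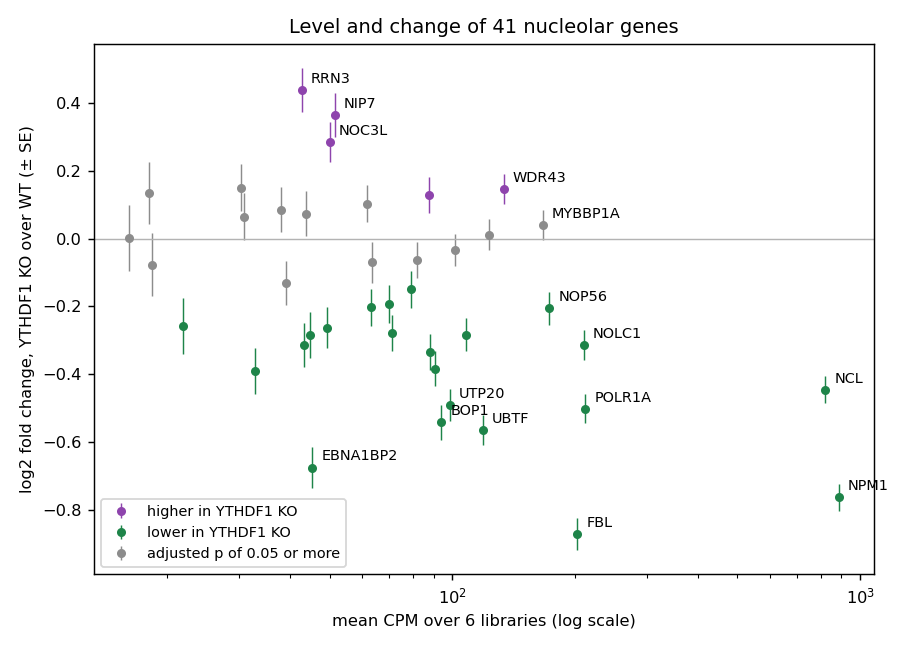
Mean CPM over the 6 libraries (x axis, log scale) and log2 fold change, YTHDF1 KO over WT (y axis), with error bars for the SE of the fit, for the 41 genes other than NOP2. The most abundant genes, NPM1 and NCL, fell, and the genes that rose, among them WDR43 and RRN3, have intermediate levels.

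RNA polymerase I transcription genes moved in opposite directions, with 3 of 7 lower (42.9%, background 26.3%) and 1 higher (14.3%, background 27.2%). The 57.1% that passed in either direction is near the 53.5% of all genes tested. UBTF, whose product binds and keeps open the ribosomal RNA genes, is a minus-strand gene on chromosome 17, from 44205033 to 44221626. It had 97.3, 96.1 and 93.7 CPM in knockout libraries, against 141, 143 and 141 CPM in WT libraries, with little spread in either group, and fell by 0.56 (SE 0.0455, adjusted p 1.59e-12). RRN3, a minus-strand gene on chromosome 16, from 15060022 to 15094317, encodes the initiation factor that brings the polymerase to its promoter. It had 48.3, 46.1 and 53.1 CPM in knockout libraries, against 35.5, 37.3 and 36.3 CPM in WT libraries. RRN3 rose by 0.44 (SE 0.0647, adjusted p 6.63e-07), the largest rise of the 42 genes. GENCODE 29 names 2 pseudogenes of RRN3. There were 1.95 ± 0.169 CPM of UBTF per CPM of RRN3 in knockout libraries and 3.90 ± 0.0735 in WT libraries (SD, n = 3 each).

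Subunits of the polymerase itself differed. POLR1A, the largest subunit and part of the catalytic centre, fell by 0.50 (SE 0.0429, adjusted p 6.59e-12) to 176 ± 4.63 CPM, against 249 ± 6.55 CPM in WT libraries. POLR1B, the other part of the catalytic centre, averaged 62.2 ± 3.59 CPM in knockout libraries and 65.2 ± 5.27 CPM in WT libraries and did not pass the test (adjusted p 0.347). POLR1D, which is shared with RNA polymerase III, fell by 0.20 (SE 0.0549) to 58.7 ± 1.2 CPM, against 67.5 ± 3.25 CPM in WT libraries. POLR1C, likewise shared, averaged 16.2 ± 1.86 CPM in knockout libraries and 16.1 ± 0.97 CPM in WT libraries, with an adjusted p of 0.99, and 18.2% of its exonic bases overlap genes on the opposite strand. MYBBP1A, a nucleolar protein that binds MYB and acts on polymerase I transcription and on p53, averaged 169 ± 5.27 CPM in knockout libraries and 165 ± 0.528 CPM in WT libraries and did not pass the test.

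Of the 10 small subunit processing genes 5 fell and 2 rose, where 26.3% of all genes tested fell and 27.2% rose. In either direction 70.0% passed, beside 53.5% of all genes tested. All 10 averaged 20 CPM or more, and of all genes at that level 73.7% passed. UTP20, a large protein of the small subunit processome on chromosome 12 from 101280109 to 101386616 on the plus strand, had 84.0, 80.9 and 81.6 CPM in knockout libraries, against 114, 115 and 117 CPM in WT libraries. The groups were well apart, and UTP20 fell by 0.49 (SE 0.0474, adjusted p 1.15e-10). UTP15 and UTP4, which belong to the subcomplex that first binds the precursor, fell by 0.39 (SE 0.0684) and fell by 0.28 (SE 0.0529). NOP14 fell by 0.31 (SE 0.0647), with 17.1% of its exonic bases overlapped by its antisense gene NOP14-AS1. RRP9, a protein of the U3 snoRNP, fell by 0.26 (SE 0.082, adjusted p 0.00821), and that call was lost without knockout replicate 2 (adjusted p 0.0535).

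WDR43 is a member of the same first-binding subcomplex as UTP4 and UTP15 and rose. It had 144, 138 and 140 CPM in knockout libraries, against 125, 128 and 127 CPM in WT libraries, and rose by 0.15 (SE 0.0447, adjusted p 0.00607). RRP12, a factor of subunit maturation and export, had 98.2, 86.4 and 89.8 CPM in knockout libraries, against 84.4, 83.7 and 82.8 CPM in WT libraries. It rose by 0.13 (SE 0.0519, adjusted p 0.0368) with knockout replicate 1 the farthest from the WT libraries. The call of RRP12 was lost without knockout replicate 1 (adjusted p 0.233), WT replicate 1 (0.0709), WT replicate 2 (0.0739) or WT replicate 3 (0.0925). UTP14A, the RNA helicase gene DDX10 and NOC4L did not pass the test, with log2 fold changes of 0.10, 0.09 and 0.06. The knockout libraries of UTP14A all lay above its WT libraries.

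Large subunit processing genes also moved both ways, with 6 of 15 lower, 2 higher and 7 that did not pass the test. The shares were 40.0% lower, 13.3% higher and 53.3% in either direction, beside 26.3%, 27.2% and 53.5% of all genes tested. EBNA1BP2, an assembly factor of the large subunit encoded on the minus strand of chromosome 1 from 43164175 to 43270936, had 35.2, 34.1 and 35.3 CPM in knockout libraries, against 55.4, 57.9 and 53.9 CPM in WT libraries. The knockout libraries were nearly equal to each other and far below WT, and EBNA1BP2 fell by 0.68 (SE 0.0606, adjusted p 2.13e-11). In GENCODE 29, 18.8% of its exonic bases overlap CFAP57 on the other strand. All genes of the PeBoW complex, which acts in the processing of the large subunit RNA, fell. BOP1 fell by 0.54 (SE 0.052) to 76.6 ± 3.5 CPM, against 112 ± 6.39 CPM in WT libraries. PES1 fell by 0.33 (SE 0.0533) and WDR12 fell by 0.26 (SE 0.0602). There were 1.71 ± 0.0739 CPM of BOP1 per CPM of WDR12 in knockout libraries and 2.07 ± 0.0921 in WT libraries (SD, n = 3 each). The helicase gene DDX56 fell by 0.38 (SE 0.0522), and GNL3 (nucleostemin), a nucleolar GTPase, fell by 0.19 (SE 0.0558).

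The 2 large subunit genes that rose were NIP7 and NOC3L. NIP7, on chromosome 16 from 69337996 to 69343111 on the plus strand, is needed for processing of the precursor. It had 64.2, 55.2 and 54.2 CPM in knockout libraries, against 43.4, 47.5 and 44.1 CPM in WT libraries, and rose by 0.36 (SE 0.0647, adjusted p 1.33e-05), with knockout replicate 1 highest. Of its exonic bases, 20.2% overlap the gene COG8 on the opposite strand, so its level is uncertain. NOC3L had 56.0, 51.7 and 57.1 CPM in knockout libraries, against 43.5, 45.2 and 46.4 CPM in WT libraries, and rose by 0.28 (SE 0.06, adjusted p 0.000142). Its partner NOC2L averaged 80.1 ± 4.53 CPM in knockout libraries and 83.8 ± 4.14 CPM in WT libraries and did not pass the test.

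The remaining large subunit genes did not pass the test. BRIX1 had a log2 fold change of 0.15 (SE 0.0704, adjusted p 0.0716), with its knockout libraries all above its WT libraries. The GTPase gene GNL2 had a log2 fold change of -0.13 (SE 0.0641, adjusted p 0.0871), with its knockout libraries all below. The methyltransferase gene FTSJ3, RRP1B and NOP16 had log2 fold changes of -0.03, 0.01 and -0.08, with overlapping groups, and 16.8% of the exonic bases of FTSJ3 and 19.95% of those of NOP16 overlap genes on the other strand. NOP2, a methyltransferase of ribosomal RNA, had 33, 45 and 38 counts in knockout libraries and 28, 13 and 55 counts in WT libraries, far below the other members. In GENCODE 29, 54.4% of its exonic bases overlap another gene on the same strand, which was listed with 0 counts in every library, so NOP2 is not read as a level of expression here.

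The genes lay on 20 chromosomes, with at most 6 on any of them. Of the 42 genes 7 carry snoRNA or scaRNA genes within their span on the same strand in GENCODE 29, 24 in all. NOP56, NOP58, DKC1, NCL, WDR43 and GNL3 each hold more than 1. No hosted snoRNA exceeded 19 counts in any library. The 3 that passed the filter on low counts, SNORA75 and SNORD20 in NCL and SNORD19C in GNL3, did not pass the test. SNORA75 had 12, 19 and 17 counts in knockout libraries, against 9, 7 and 3 counts in WT libraries, with a log2 fold change of 1.17 (SE 0.596, adjusted p 0.101).

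Other genes of the pathway, from 5 lists by role, moved in both directions. Of 141 listed genes 140 were tested, of which 53 fell (37.9%, background 26.3%), 39 rose (27.9%, background 27.2%) and 65.7% passed in either direction (background 53.5%). Of the 116 of them that averaged 20 CPM or more, 44.0% fell and 28.4% rose, beside 38.1% and 35.7% of all genes at that level. Their median log2 fold change was -0.05, and how they differ from the 42 genes was not tested. No gene among these changed by 2-fold or more. Small subunit factors were lower in 19 (41.3%) and higher in 15 (32.6%) of 46 tested genes. DCAF13 fell by 0.77 (SE 0.0609), while DDX52, a helicase gene, rose by 0.49 (SE 0.0562) and ESF1 rose by 0.45 (SE 0.0553). Large subunit factors were lower in 19 (40.4%) and higher in 16 (34.0%) of 47 genes. NOP53, a late-acting factor, fell by 0.72 (SE 0.0441) to 219.98 ± 12.8 CPM, against 363 ± 6.72 CPM in WT libraries. MDN1, a giant ATPase that strips factors from the maturing subunit, fell by 0.54 (SE 0.0487), and the GTPase gene GNL3L fell by 0.60 (SE 0.0546).

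Of 16 further polymerase I factors 5 fell and 2 rose, and the 43.8% that passed in either direction is below the 53.5% of all genes tested. POLR1E, a subunit of the polymerase, fell by 0.95 (SE 0.0762, adjusted p 1.27e-12) to 18.0 ± 1.36 CPM, against 35.0 ± 0.269 CPM in WT libraries, an estimate beyond that of any of the 42 genes. POLR2E and POLR2L, which all nuclear RNA polymerases share, fell by 0.36 (SE 0.0486) and fell by 0.48 (SE 0.0674), and 22.5% of the exonic bases of POLR2L overlap CD151 on the other strand. Among 14 snoRNP assembly genes 5 fell and 2 rose, 50% in either direction and so near the background. TCOF1 (treacle), which acts in ribosomal RNA gene transcription and snoRNA-guided methylation, fell by 0.41 (SE 0.0461), and the ATPase genes RUVBL1 and RUVBL2 fell by 0.49 (SE 0.0558) and fell by 0.33 (SE 0.0499). Of 17 exosome and nuclease genes, whose products trim the precursor, 5 fell and 4 rose, 52.9% in either direction and likewise near the background. The helicase gene MTREX fell by 0.41 (SE 0.052), while the exosome genes EXOSC10 and EXOSC9 rose by 0.38 (SE 0.0571) and 0.50 (SE 0.0792). The level of EXOSC10 is uncertain, since 39.3% of its exonic bases overlap genes on the other strand.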

How the data were processed

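The authors deposited a table of counts, whole numbers per Ensembl gene and library, for 60617 genes in 6 RNA-seq libraries made with a stranded Illumina TruSeq kit, per the labels' protocols. The genome build was GRCh38, per the submitters' processing notes, which also list featureCounts 2.0.1, STAR 2.7.0d, edgeR 3.32.1 and Trim Galore 0.6.6 without a role. Neither the annotation, the strand setting nor the handling of multi-mapping reads is stated there.

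A two-sided quasi-likelihood test (edgeR 4.0.16, R 4.3.3) was fitted to the counts with genotype as the only term, after filterByExpr and with TMM factors. It gave a common biological coefficient of variation of 0.0617. The SE is the absolute log2 fold change divided by the square root of F. Alternatives were DESeq2 1.42.0, limma-voom (limma 3.58.1), other scalings and filters, a replicate block, leaving out each library, and stricter thresholds. Libraries of a group differed by more than sampling noise (chi-square per degree of freedom 4.2 to 6.09). On counts simulated for knockout against WT over 18194 genes, the test recovered 95.5% of 67 genes changed 1.5-fold, and 16 of 212 calls were false. The simulation changed few genes, none at low counts, and gave all genes the same variation between libraries. Changes below 1.5-fold were not simulated. Its rates need not hold for these data, where 53.5% of the genes tested passed.

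Coordinates, exon lengths and overlaps are from GENCODE 29 on GRCh38, which need not be the annotation behind the counts, and promoter sequences are from RefSeq on GRCh38.p14. The members and lists were chosen with earlier results of these data known. In each role group the genes with the smallest and largest log2 fold change, those called against the majority, and the 2 most abundant genes overall are given by library, and from each other list the 3 genes with the smallest adjusted p are named. MYC, MAX, SNU13 and the ratios were chosen after their values were seen.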

Additional observations from a re-analysis of the deposited data

How the results depend on the processing

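Of the 42 genes 37 kept their call under 13 alternatives, namely the other tests (DESeq2 and limma-voom), scalings (RLE factors and library size only) and filters (none, or 1 CPM in 3 libraries), the replicate block and the omission of each library. With library size only, NOP58 was no longer called (adjusted p 0.0603), and UTP14A (0.0422) and BRIX1 (0.0346) were called higher. The calls of NOP58, RRP9 and RRP12 also depended on single libraries, as given with each. Leaving out a library gave between 20 and 22 genes lower, between 4 and 5 higher and a median between -0.186 and -0.153. With a change of at least 1.5-fold built into the test, 2 of the 42 genes were lower and 0 were higher. Among the 140 other ribosome biogenesis genes tested 4 were called, 4 lower and 0 higher. Of all genes tested 2585 (14.0%) were called, and 1012 (5.47%) were lower. Of the values without a test, the ratio of shares was 0.874 without the 2 most abundant genes.

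The replicate numbers are shared between groups, but deviations of same-numbered libraries from their group means were not correlated (r between -0.026 and 0.00785). No shared effect of the replicate number was thus visible, and the labels do not say whether same-numbered libraries were prepared together. With the number as a replicate block 22 of the 42 genes were lower, 5 were higher and 9703 of all genes tested passed. Without the members of which at least 15% of exonic bases overlap another gene, an alternative chosen after seeing the data, 19 were lower and 4 higher. At these depths genes near 1 CPM, such as NOP2, allow no statement.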
